A study of Mus musculus with 16 samples.

Results

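The response to CAY10566, an inhibitor of stearoyl-CoA desaturase (SCD), was compared between 2 genotypes by the genotype by treatment interaction in hippocampal RNA sequencing. The interaction is the log2 change with the inhibitor in 3xTg mice, 3xTg-S against 3xTg-D, minus the log2 change in WT mice, WT-S against WT-D. A positive value means that a gene moved further up, or less far down, in 3xTg than in WT mice. All 16 mice of the series were members, with 4 in each of 4 groups, and all were used. The 3xTg mice carry a knock-in allele together with human mutant APP and tau transgenes, the latter both driven by the neuronal Thy1.2 element, and the WT mice are labelled C57BL/6J x 129S1. Mice were female, 10 months old at dissection, and had received 28 days of intracerebroventricular infusion from an osmotic pump. By the protocol, S mice received the inhibitor at 80 µM and D mice the vehicle alone, so that all 16 mice had been operated and exposed to 0.8% DMSO. The sample labels name the Cayman compound, whereas that protocol text, common to all samples, names a product of another supplier. The S mice are called CAY10566-treated after their labels.

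SCD introduces the first double bond into saturated fatty acids and so makes the monounsaturated fatty acids used in membranes, triglycerides and cholesterol esters. In the brain, Scd2 is the form most used by myelinating cells and neurons, and astrocytes supply much of the lipid that neurons take up as lipoprotein. An interaction is the direct test of whether an inhibitor acts differently in diseased and healthy tissue, because a change that passes a threshold in one genotype and misses it in the other may still be the same change. It carries the error of all 4 groups and is measured less precisely than either simple effect.

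Between 15413385 and 23590149 reads per mouse fell on annotated genes, and 16475 genes passed the filter on low counts. The median standard error of the interaction was 0.167 on the log2 scale, against 0.119 for the effect of the inhibitor in 3xTg mice and 0.118 in WT mice. Of the reads placed at a single site in the genome, those with no annotated gene made up 11.4% ± 1.0 (SD, n = 4) in WT-D mice. With CAY10566 this share was 10.5% ± 1.91 in WT and 11.9% ± 3.06 in 3xTg mice, and with vehicle it was 10.3% ± 1.11 in 3xTg mice. It ran from 7.82% to 15.1% within 3xTg-S alone. The difference of differences was 2.53 percentage points, and an exact two-sided permutation test of the treatment labels within genotype gave p = 0.205 over 4900 assignments. The dentate granule cell marker Prox1 was measured at a mean of 122.6 CPM (read counts scaled to library size) over all mice, with a log2 interaction of 0.06 ± 0.17 (SE, n = 16). All values are from bulk tissue, in which fewer cells of a type and less RNA per cell cannot be told apart.

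No gene passed a Benjamini-Hochberg adjusted p of 0.05 for the interaction in edgeR's quasi-likelihood test, and the smallest adjusted p was 0.788. An unadjusted p under 0.05 was found for 821 genes, or 4.98% of those tested. At the study's own threshold for differentially expressed genes (DEGs), an unadjusted p of 0.01 or less, 98 genes were called, which is 0.595% of the genes tested. A uniform distribution of p-values would place 165 genes there, and with single mice left out the count ran from 56 without 3xTg-S mouse 4 to 487 without 3xTg-S mouse 2. Of the 98, 50 were positive (0.303% of genes tested) and 48 were negative (0.291%). limma-voom called no gene at the adjusted threshold and DESeq2's likelihood ratio test called 1, the pseudogene Gm15920. Individual genes named below are descriptions of the smallest p-values in this cohort.

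The simple effects that make up the interaction were uneven in number. In the same fit, 249 genes (1.51% of those tested) passed the threshold for the inhibitor in 3xTg mice and 48 (0.291%) in WT mice. Across all genes the median absolute log2 change was 0.109 in 3xTg and 0.075 in WT mice, and the changes in the 2 genotypes, which come from different mice, had a Pearson correlation of 0.0641 and a Spearman correlation of -0.124 across genes. Genes are not independent replicates, so no p is given. Among the 98 interaction genes, 96 had changes of opposite sign in the 2 genotypes (98.0%, against 56.5% of all genes), a feature that selection on the difference favours. The 3xTg change was the larger one in 80 of the 98 (81.6%, against 61.1% of all genes). Of the 98, 58 also passed the threshold in 3xTg mice, 8 passed it in WT mice, none passed it in both, and 32 passed it in neither. These splits by genotype come from genes selected on the difference, and changes were larger in 3xTg mice across all genes. They are therefore not a separate test of where the inhibitor acted. The called interactions had a median absolute size of 0.54 and ran from 0.27 to 4.50 on the log2 scale.

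**Figure D1:**
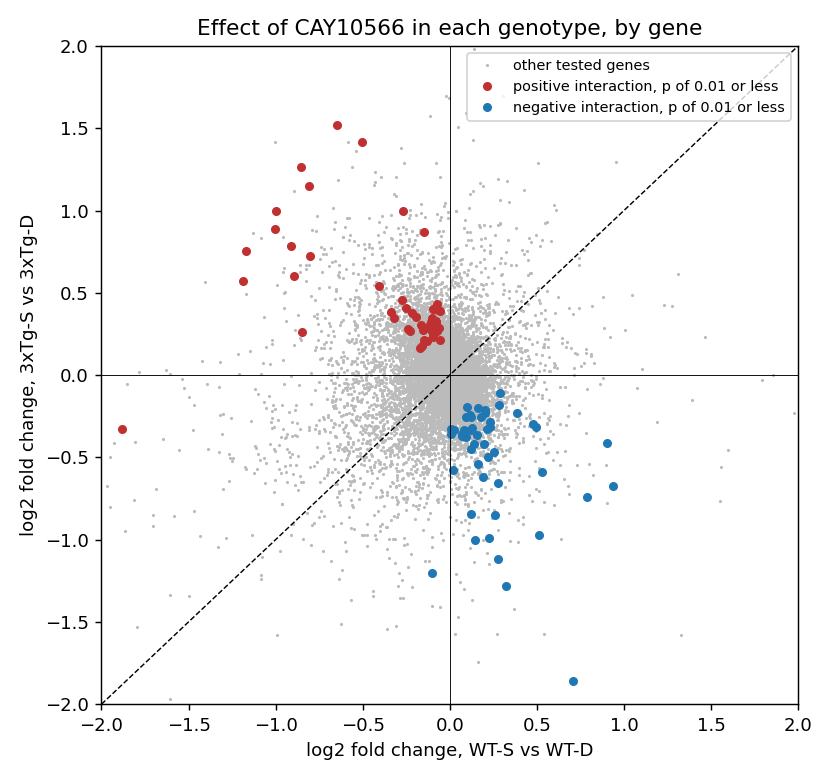
Log2 fold change with CAY10566 in WT mice (horizontal axis) against the change in 3xTg mice (vertical axis), 1 point per tested gene, with interaction genes at p of 0.01 or less in colour and equal change as the dashed line. The 98 coloured genes lie mostly at the upper left and lower right, where the changes have opposite signs, and 38 genes lie outside the plotted range, 2 of them interaction genes.

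Among the named genes with negative interactions, several are known from astrocytes. Plpp3, a phosphatase of bioactive lipids such as lysophosphatidic acid, was measured at 276, 295, 277 and 285 CPM in WT-D, 327, 330, 296 and 282 CPM in WT-S, 341, 375, 319 and 292 CPM in 3xTg-D and 273, 287, 253 and 251 CPM in 3xTg-S mice. Every 3xTg-D mouse lay above every 3xTg-S mouse, and WT-S mice overlapped with WT-D and 3xTg-D mice. The log2 interaction of Plpp3 was -0.44 ± 0.11 (SE, n = 16), with p = 0.000698 in edgeR's test, from changes of 0.13 in WT and -0.32 in 3xTg mice. Slc38a3, a glutamine transporter of astrocytes, was measured at 47.1, 44.4, 45.4 and 46.3 CPM in WT-D, 45.8, 45.5, 43.8 and 49.4 CPM in WT-S, 45.4, 45.1, 41.1 and 40.1 CPM in 3xTg-D and 35.8, 31.5, 34.8 and 34.8 CPM in 3xTg-S mice. Its values were lowest in the 3xTg-S group, below every mouse of the other groups, and the 3 other groups overlapped. The interaction of Slc38a3 was -0.34 ± 0.09 (SE, n = 16) with p = 0.0011 (edgeR), and the change was 0.01 in WT and -0.33 in 3xTg mice. Papss2, which makes the sulfate donor used for sulfation of glycans and lipids, was measured at 23.3, 25.8, 23.1 and 22 CPM in WT-D, 27.5, 29.3, 26.1 and 22.1 CPM in WT-S, 31.8, 41.2, 34 and 29.4 CPM in 3xTg-D and 24.2, 29.5, 27.4 and 24.8 CPM in 3xTg-S mice. The lowest 3xTg-D mouse was just below the highest 3xTg-S mouse, the other 3xTg-D mice were above all others, and the interaction was -0.52 ± 0.15 (SE, n = 16) with p = 0.00295 (edgeR).

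The other negative genes of this kind had various roles. Prrg4, a membrane protein with a Gla domain, had 1.52, 1.44, 1.35 and 1.74 CPM in WT-D, 2.16, 1.92, 1.42 and 1.57 CPM in WT-S, 2.25, 1.51, 1.38 and 1.58 CPM in 3xTg-D and 1.05, 0.811, 0.706 and 0.81 CPM in 3xTg-S mice. Every 3xTg-S mouse was below every mouse of the other groups, at 1.05 CPM or less, and the interaction was -1.22 ± 0.29 (SE, n = 16) with p = 0.000675 (edgeR). Steap3, an endosomal ferric reductase, was likewise lowest in 3xTg-S mice, at 2.94, 2.96, 2.7 and 2.43 CPM, against 3.13 to 5.03 CPM in the other groups, with an interaction of -0.70 ± 0.18 (SE, n = 16). For Grwd1, a ribosome assembly factor, the interaction was -0.55 ± 0.14 (SE, n = 16). Car8, a protein related to carbonic anhydrases that binds the inositol trisphosphate receptor, had -0.77 ± 0.22 (SE, n = 16), and its larger change was in WT mice, where it went from 4.65, 5.09, 5.71 and 4.9 CPM with vehicle to 6.81, 7.77, 8.71 and 4.94 CPM with CAY10566. Erh, a small RNA-processing factor that overlaps another gene on the opposite strand, had -0.46 ± 0.13 (SE, n = 16), again with the larger change in WT mice (0.28 in WT and -0.18 in 3xTg mice). Srrd had -0.43 ± 0.12 (SE, n = 16) and also overlaps a gene on the opposite strand.

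Positive interactions included regulators of transcription and of cell volume and shape. Nr4a2, an orphan nuclear receptor induced by neuronal activity, was measured at 62.7, 70.4, 58.2 and 68.1 CPM in WT-D, 63.1, 56.9, 57.7 and 64.3 CPM in WT-S, 41.9, 47.4, 50.9 and 57.8 CPM in 3xTg-D and 57.9, 67.8, 59 and 66.6 CPM in 3xTg-S mice. Every 3xTg-D mouse was below every 3xTg-S mouse, although 57.8 and 57.9 CPM all but met, and the WT groups lay between 56.9 and 70.4 CPM. Its interaction was 0.44 ± 0.13 (SE, n = 16) with p = 0.00326 (edgeR). Tshz3, a zinc-finger factor of cortical projection neurons, was measured at 16.2, 20.8, 19.7 and 20.8 CPM in WT-D, 15.6, 15.9, 16.9 and 16.7 CPM in WT-S, 15.9, 17.6, 15.8 and 24.6 CPM in 3xTg-D and 26.2, 21, 23.6 and 27.3 CPM in 3xTg-S mice. The 3xTg-S mice reached the highest values, overlapping with 3xTg-D mouse 4 alone among the other groups, and the interaction was 0.66 ± 0.18 (SE, n = 16) with p = 0.00218 (edgeR). Lrrc8c, a subunit of the volume-regulated anion channel, was measured at 37.5, 43.5, 41.5 and 35 CPM in WT-D, 35.1, 36, 37.6 and 39.1 CPM in WT-S, 35.8, 34.5, 39 and 35.2 CPM in 3xTg-D and 41.7, 45.6, 47.5 and 42.8 CPM in 3xTg-S mice. Its 3xTg-S mice were all above its 3xTg-D mice, WT-D overlapped both, and the interaction was 0.39 ± 0.10 (SE, n = 16) with p = 0.00151 (edgeR).

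Further positive genes at the smallest p-values were Abi3bp, an extracellular matrix protein, at 1.5 ± 0.42 (SE, n = 16), and Fmn1, an actin nucleator, at 0.60 ± 0.17 (SE, n = 16). Abi3bp had its lowest mean in WT-S mice, at 0.61, 0.466, 0.871 and 0.868 CPM, which overlapped with the lowest vehicle-treated mice, and its larger change was in WT mice (-0.89 in WT and 0.61 in 3xTg mice). Tsc22d2 had 0.37 ± 0.11 (SE, n = 16) and Gprin3, a neurite outgrowth gene, had 0.47 ± 0.14 (SE, n = 16). Of the 43 genes chosen for naming that passed p of 0.01, 24 kept that call when any one mouse was left out, and none changed sign in any of those 16 fits.

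**Figure D2:**
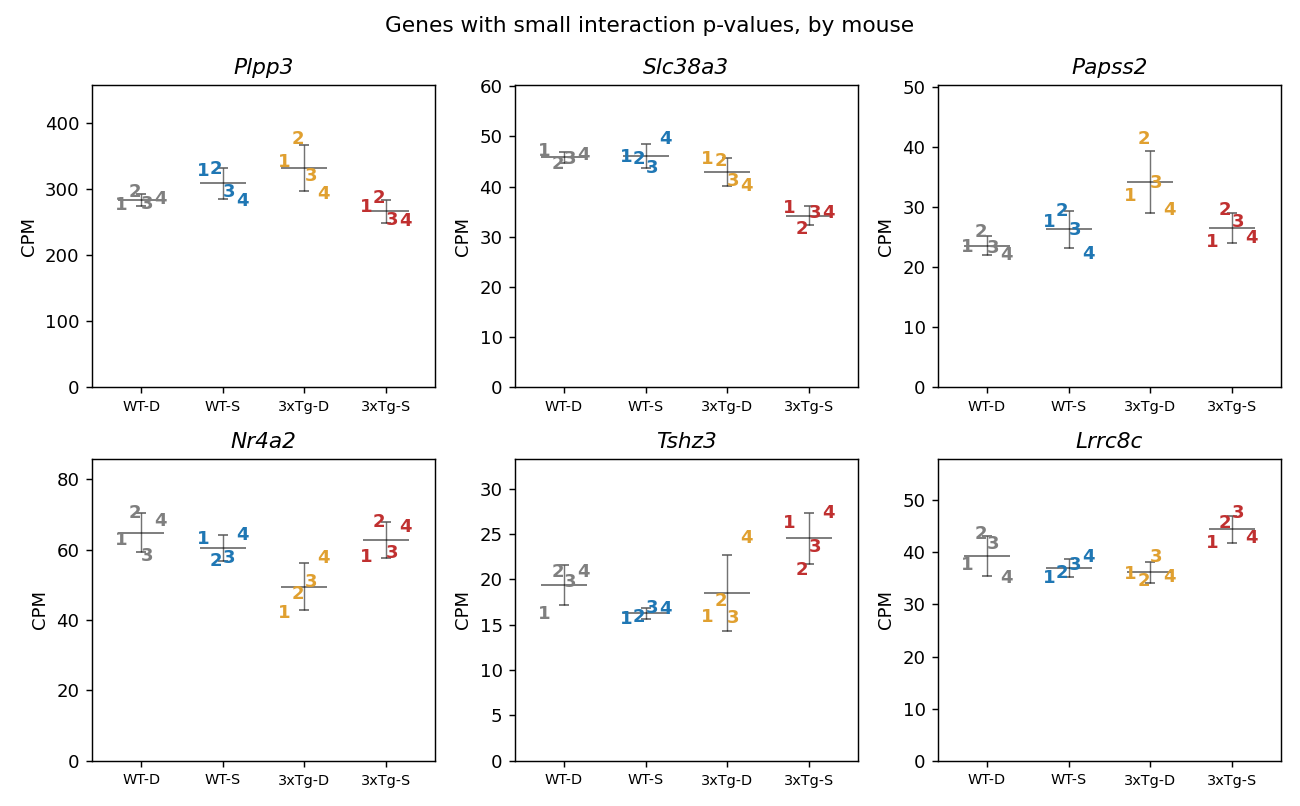
CPM of 6 genes in each mouse, with each digit showing the mouse's replicate number and the bar the mean ± SD of 4 mice. Plpp3, Slc38a3 and Papss2 have negative interactions and Nr4a2, Tshz3 and Lrrc8c positive ones, and Slc38a3 is lowest in all 4 3xTg-S mice.

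More genes were called in the fit with replicate number as a block. There, 624 genes passed p of 0.01 (3.79% of those tested), 391 of them positive (2.37%) and 233 negative (1.41%). None passed the adjusted threshold in that edgeR fit, where the smallest adjusted p was 0.206 and 2232 genes had p under 0.05. The 2 fits shared 96 genes, which is 98.0% of the 98 and 15.4% of the 624. Most estimates hardly moved, with a median shift of 0.00458 over all genes, and all 624 had the same sign without the block. Larger moves included those of MHC class I presentation genes, whose median went from 0.82 to 0.35. The median of interferon response genes went from 0.71 to 0.17. The median ratio of standard errors, with the block to without it, was 0.889. The labels describe no pairing by number, and the deviations of same-numbered mice from their group means did not correlate in every pair, so the block counts are given as a second description of the interaction.

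Genes with the smallest block p among those called in both fits, beyond the ones above, were also split by kind. On the positive side were Parm1 (0.35 ± 0.07 with the block, SE, n = 16), the relaxin receptor gene Rxfp1 (0.97 ± 0.20), the lamellipodin gene Raph1 (0.47 ± 0.10), citron kinase, Cit (0.50 ± 0.10), the GTPase-activating protein gene Arhgap32 (0.39 ± 0.08) and the choline transporter-like gene Slc44a5 (0.36 ± 0.08). Rxfp1 had 17.6, 25.8, 21.6 and 25.3 CPM in WT-D, 18.1, 14.7, 14.2 and 21 CPM in WT-S, 15.5, 15, 19.8 and 29.2 CPM in 3xTg-D and 29.6, 25.5, 23.5 and 37 CPM in 3xTg-S mice. WT-D mice 2 and 4 and 3xTg-D mouse 4 lay within the range of 3xTg-S mice. On the negative side were the matricellular protein gene Sparc (-0.42 ± 0.08), the microglial purinergic receptor gene P2ry13 (-0.72 ± 0.14), the small GTPase gene Rnd2 (-0.60 ± 0.12), the oligosaccharyltransferase subunit gene Dad1 (-0.34 ± 0.08), Cmtm5 (-0.59 ± 0.15) and Ppdpf (-0.53 ± 0.14). Sparc was measured at 212, 220, 214 and 192 CPM in WT-D, 263, 267, 237 and 198 CPM in WT-S, 207, 233, 189 and 182 CPM in 3xTg-D and 173, 191, 182 and 148 CPM in 3xTg-S mice, so that WT mice with the inhibitor were mostly higher than without it and 3xTg mice mostly lower. Rnd2, which also overlaps a gene on the opposite strand, had changes of 0.39 in WT and -0.23 in 3xTg mice.

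Within the inhibitor's own pathway, no desaturase gene passed the threshold. Scd1 was measured at 196, 191, 171 and 162 CPM in WT-D, 180, 216, 185 and 155 CPM in WT-S, 162, 171, 158 and 140 CPM in 3xTg-D and 155, 171, 140 and 125 CPM in 3xTg-S mice, and its interaction was -0.13 ± 0.15 (SE, n = 16). Scd2, at 1210 to 1560 CPM in all mice, had -0.13 ± 0.10 (SE, n = 16), and Scd3 had -0.19 ± 0.24 (SE, n = 16). The groups overlapped for each of the 3 genes, and Scd4 did not pass the filter on low counts. Of 18 tested genes of fatty acid desaturation and elongation, none was called without the block and 2 were called negative with it, the front-end desaturases Fads1 (-0.26 ± 0.07) and Fads2 (-0.29 ± 0.09), which act on polyunsaturated fatty acids. The median log2 interaction of that list was -0.10, against 0.01 for all tested genes, and it was -0.03 with the share of reads outside genes as a covariate. Of 14 acyl-CoA synthetases, which activate fatty acids for use, 2 were called negative, Acss1 (-0.36 ± 0.11, SE, n = 16) and Acsf2 (-0.36 ± 0.13, SE, n = 16), and the block added Acsbg1 (-0.42 ± 0.09). Acss1 overlaps a gene on the opposite strand. Of all tested genes, 0.291% were called negative without the block and 1.41% with it.

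Fatty acid beta-oxidation stood lower as a list. Of its 24 tested genes, 8.33% were positive, against 51.9% of all genes. The median was -0.18 and ran from -0.26 without WT-S mouse 4 to -0.11 without 3xTg-D mouse 2. None was called without the block and 6 were called negative with it, against 1.41% of all genes. Among them were Cpt1a, which admits fatty acids to mitochondria (-0.32 ± 0.10), Etfa, which passes on the electrons (-0.31 ± 0.07), and Acads (-0.57 ± 0.18). Cpt1a was 36, 39.4, 34.7 and 32.8 CPM in 3xTg-D and 32.6, 30.2, 33.8 and 27.6 CPM in 3xTg-S mice, and 29.3, 32.3, 29.2 and 31.5 CPM in WT-D and 34.9, 35.3, 32.9 and 29.6 CPM in WT-S mice. In the lipid droplet list (18 tested, median -0.18) Plin3, a droplet coat protein, was called with the block (-0.42 ± 0.12), and in de novo lipogenesis (15 tested, median -0.01) Gpam (-0.30 ± 0.10) and Thrsp (-0.52 ± 0.17) were. Lipoprotein and cholesterol transport (19 tested) had a median of 0.01 and 3 block calls of mixed sign, Apoe (-0.35 ± 0.10), Clu (-0.38 ± 0.10) and Abca7 (0.54 ± 0.18). Without the block their p-values in edgeR's test were 0.0731, 0.0382 and 0.122. With the share of reads outside genes as a covariate and no block, their interactions were -0.15, -0.19 and 0.19. Apoe ran from 1060 to 1730 CPM in 3xTg-D and from 887 to 1220 CPM in 3xTg-S mice, and 3xTg-D mouse 2 held the highest value. Cholesterol synthesis (24 tested, median 0.01) and ceramide and sphingolipid synthesis (21 tested, median -0.02) had no call in either fit.

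Glial lists were mostly negative. Reactive astrocyte genes (13 tested, 38.5% positive) and oligodendrocyte precursor genes (13 tested, 46.2% positive) lay nearer to all genes. Each of these 2 lists had a median of -0.04, against 0.01 for all genes, and no call in either fit. With the block, 1.41% of all tested genes were called negative. All 16 homeostatic astrocyte genes had negative interactions, with a median of -0.21. That median ran from -0.29 without 3xTg-D mouse 4 to -0.14 without 3xTg-D mouse 2. Plpp3 was called without the block, and the block added Aldoc (-0.40 ± 0.10), an astrocyte glycolytic enzyme, and Ndrg2 (-0.40 ± 0.09). Of 16 homeostatic microglia genes, 12.5% were positive, the median was -0.27 and P2ry13 was called (-0.72 ± 0.24, SE, n = 16), joined with the block by the purinergic receptor P2ry12 (-0.43 ± 0.14) and by Gpr34 (-0.55 ± 0.17). P2ry13 was 16.4, 15.8, 13.5 and 11.7 CPM in WT-D, 16.6, 20.3, 19.2 and 12.5 CPM in WT-S, 24, 26.5, 22.7 and 19.1 CPM in 3xTg-D and 17.5, 22, 13.5 and 13.8 CPM in 3xTg-S mice. The 3xTg-D group was highest, overlapping with 3xTg-S mouse 2 and with WT-S mice 2 and 3, and this list's median moved from -0.46 without WT-D mouse 1 to -0.04 without 3xTg-D mouse 2. Disease-associated microglia genes (17 tested, median -0.13) and myelin genes (16 tested, median -0.19) had no call in either fit. The former median ran from -0.31 without WT-D mouse 1 to -0.01 without 3xTg-D mouse 2, and the latter from -0.32 without WT-S mouse 4 to -0.09 without WT-S mouse 1. The median change of ependymal and motile cilia genes was -0.29 in WT and -0.67 in 3xTg mice, so the list was lower with the inhibitor in both. These genes had the lowest median interaction of all lists, -0.43 over 16 genes. Their mean log2 CPM was 0.73 to 1.13 in 3xTg-S mice, below the 1.26 to 1.99 of the other groups, and 1 gene, Ccdc153, was called with the block (-0.94 ± 0.29).

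Lists of receptors, channels and synaptic proteins had mostly positive interactions, whereas interneuron and neuropeptide genes (18 tested, 22.2% positive, median -0.17) did not. Among 24 glutamate receptor genes 87.5% were positive, with a median of 0.16. With the block 5 were called, all positive, against 2.37% of all genes called positive. They included Grm4 (0.63 ± 0.19), Grm8 (0.49 ± 0.16) and the NMDA receptor subunit gene Grin2b (0.73 ± 0.23). Of 75 potassium channel genes 64% were positive, with a median of 0.10, and with the block 8 were called positive, against 2.37% of all genes, and none negative, among them Kcnq3 (0.42 ± 0.13), Kcnb2 (0.46 ± 0.12) and Kcnh7 (0.46 ± 0.14). Kcnq3, a subunit of the M-current channel, was 266, 260, 259 and 239 CPM in WT-D, 213, 238, 246 and 266 CPM in WT-S, 203, 176, 229 and 216 CPM in 3xTg-D and 225, 250, 241 and 316 CPM in 3xTg-S mice. Of 39 sodium, calcium and HCN channel genes none was called without the block and 6 were called with it, against 2.37% of all genes called positive. All 6 were positive and all were calcium channel subunits, such as Cacna1e (0.64 ± 0.18), Cacna1g (0.54 ± 0.16) and Cacna1a (0.44 ± 0.14). The presynaptic scaffold genes Bsn (0.66 ± 0.18) and Pclo (0.78 ± 0.23) and the priming factor gene Unc13b (0.57 ± 0.15) were called with the block alone in the vesicle release list. With the share of reads outside genes as a covariate and no block, their interactions were 0.34, 0.29 and 0.19. In that fit Cacna1e, Cacna1g and Cacna1a were 0.27, 0.20 and 0.14. Kcnq3, Kcnb2 and Kcnh7 were 0.33, 0.27 and 0.34, Grin2b was 0.35, and Grm4 and Grm8 were 0.65 and 0.47. Of 52 synaptic adhesion genes 88.5% were positive. Cntn4 was called without the block (0.43 ± 0.14, SE, n = 16), where 0.303% of all genes were called positive. With the block 6 were called, all positive, against 2.37% of all genes, including Lrfn5 (0.23 ± 0.08) and Cntnap5c (0.77 ± 0.20). Lrrc7 (0.44 ± 0.15) and Shank2 (0.29 ± 0.09) were called with the block alone in the postsynaptic density list. GABA and glycine receptors (19 tested, median 0.02) had no call in either fit, and axon guidance genes (66 tested) had a median of 0.16 and no call. With single mice left out, several of these medians were lowest without 3xTg-D mouse 2. Without it they were 0.10 for glutamate receptors, 0.08 for sodium, calcium and HCN channels, 0.02 for vesicle release, 0.07 for synaptic adhesion and 0.10 for axon guidance. Those of potassium channels (0.07) and the postsynaptic density (0.01) were lowest without other mice.

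Activity-dependent and regional genes gave a few further calls. Of 22 immediate early genes 86.4% were positive, with a median of 0.24, and Nr4a2 alone was called, in both fits. Of 12 neocortical markers Tbr1 was called (0.43 ± 0.13, SE, n = 16). The mean log2 CPM of the neocortical list was 4.25 to 4.32 in 3xTg-S, 4.02 to 4.31 in 3xTg-D, 4.10 to 4.23 in WT-D and 4.06 to 4.21 in WT-S mice, and the part of cortical tissue in these interactions was not tested. Hippocampal subfield markers (18 tested) had a median of 0.00. Sox11, a factor of immature neurons, was called (0.42 ± 0.14, SE, n = 16), and Hopx, expressed in dentate neural stem cells and astrocytes, had -0.50 ± 0.16 with the block. The endoplasmic reticulum chaperone genes Pdia4 (0.34 ± 0.12, SE, n = 16) and, with the block, Hspa5 (0.33 ± 0.10) were positive. Growth factor receptor genes Igf1r (0.51 ± 0.11) and Ntrk3 (0.51 ± 0.16) were positive with the block. They were 0.26 and 0.22 with the share of reads outside genes as a covariate and no block. The neuropeptide gene Npy (-0.68 ± 0.23), the clock-controlled gene Dbp (-0.50 ± 0.15), the metallothionein gene Mt2 (-0.60 ± 0.15), the quinone reductase gene Nqo1 (-0.71 ± 0.23) and the complement regulator gene Csmd1 (0.60 ± 0.18) were each the single call of their list with the block, and Csmd1 was positive where the other 4 were negative. In the same order, they were -0.50, -0.40, -0.24, -0.48 and 0.11 with the share of reads outside genes as a covariate and no block. Npy was 66.5, 74.7, 48 and 32.8 CPM in WT-S mice, of which 3 exceeded every other mouse, and 29.4 to 32.8 CPM in 3xTg-S mice.

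**Figure D3:**
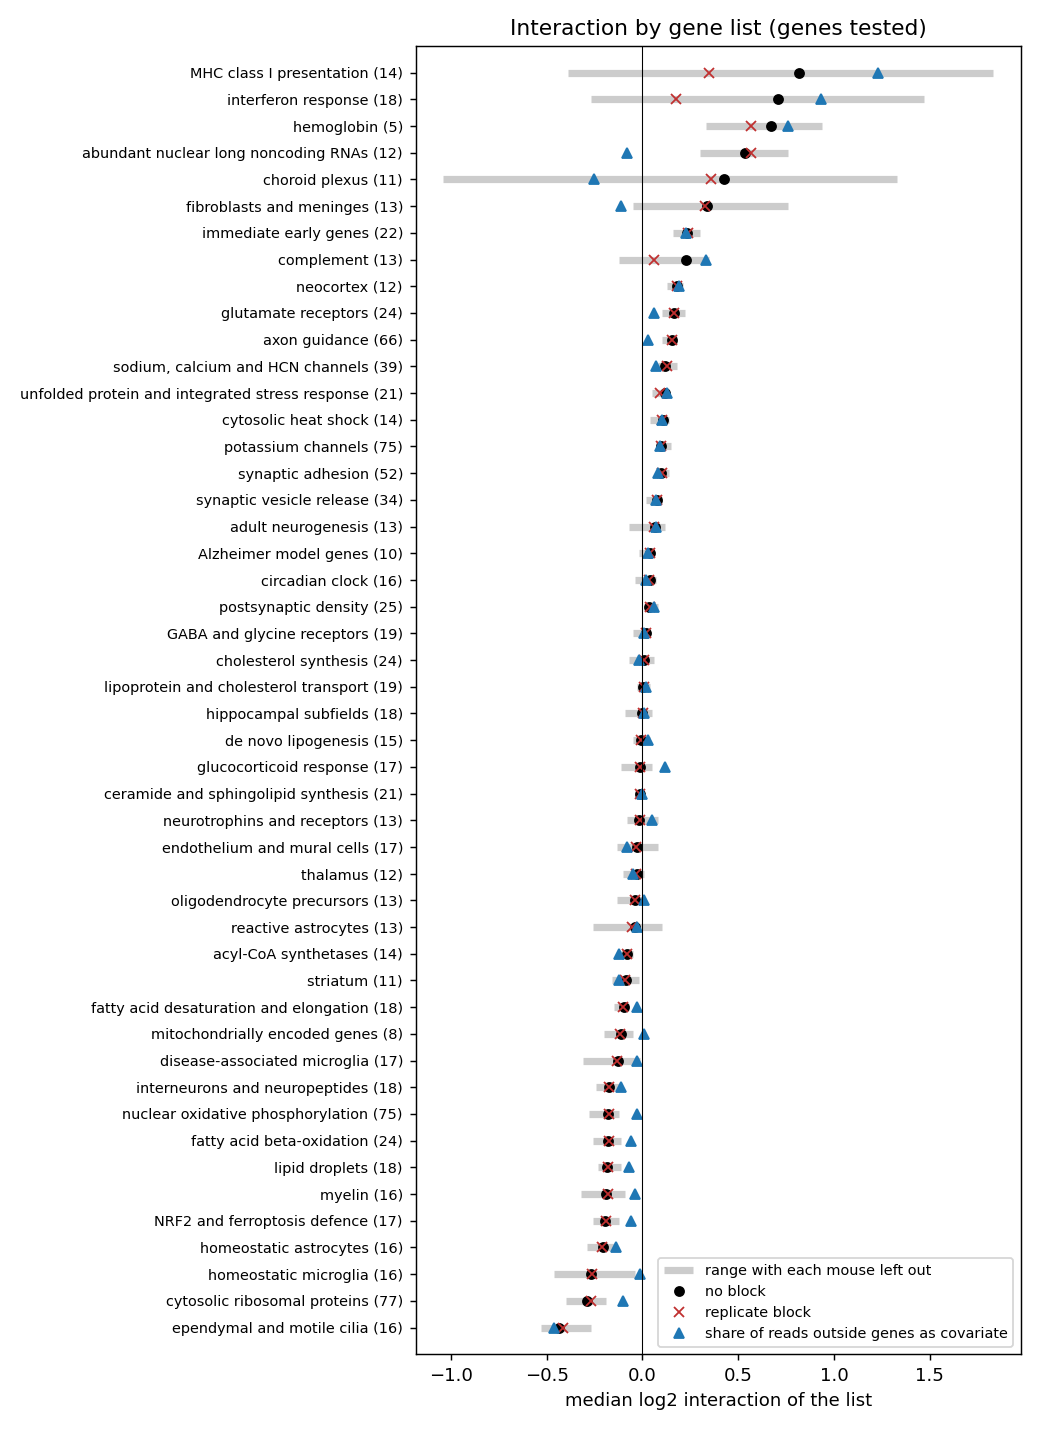
Median log2 interaction of each of the 48 gene lists (tested genes in parentheses) without a block, with the replicate block and with the share of reads outside genes as a covariate, and as grey bars the range of the unblocked median when each mouse was left out. Ribosomal protein, oxidative phosphorylation and nuclear noncoding RNA lists move toward 0 with the covariate, and MHC class I and interferon lists span 0 when single mice are left out.

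The largest lists of housekeeping genes had members mostly of one sign. Of 77 cytosolic ribosomal protein genes 6.49% were positive. The median was -0.29 and ran from -0.40 without WT-S mouse 4 to -0.19 without 3xTg-D mouse 2. The block called 8, all negative, against 1.41% of all genes called negative, such as Rplp2 (-0.35 ± 0.10), Rps25 (-0.43 ± 0.13) and Rpl18 (-0.44 ± 0.13). Of 75 nuclear genes of oxidative phosphorylation 4% were positive and the median was -0.18. The block called 6, all negative, against the same 1.41%, including Ndufa12 (-0.36 ± 0.10), Uqcr11 (-0.40 ± 0.11) and Uqcrq (-0.37 ± 0.11). Conversely, all 12 abundant nuclear long noncoding RNAs were positive, with a median of 0.54 and no call in either fit. Their mean log2 CPM was 7.53, 6.30, 7.52 and 7.81 in 3xTg-S mice 1 to 4, in the same order of mice 2, 3, 1 and 4 as the share of reads outside genes, which was 7.82%, 12.01%, 12.8% and 15.1%. Mice 1 and 3 were nearly equal for these RNAs. The orders also matched in WT-S mice. In the vehicle groups they differed only by an exchange of neighbours, mice 1 and 2 in WT-D and mice 1 and 4 in 3xTg-D.

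Gene length separated the calls as well. With the block, the longest of 5 equal classes of genes by genomic span, from 72310 bases, held 215 positive and 24 negative calls, whereas the shortest class, up to 6250 bases, held 34 positive and 71 negative calls. Without the block the counts were 22 and 5 in the longest class and 8 and 16 in the shortest. The median interaction rose from -0.05 in the shortest class to 0.08 in the longest. With the share of reads outside genes as a covariate, these medians were -0.04 and 0.04, the ribosomal protein median was -0.10, that of nuclear oxidative phosphorylation -0.03, that of beta-oxidation -0.06, that of homeostatic microglia -0.01, that of glutamate receptors 0.06 and that of the nuclear noncoding RNAs -0.08. In the same fit the medians were -0.07 for lipid droplets, -0.04 for myelin, -0.03 for disease-associated microglia, 0.03 for axon guidance, 0.01 for mitochondrially encoded genes and -0.11 for fibroblast and meningeal genes. Medians of homeostatic astrocyte genes (-0.14), immediate early genes (0.23), potassium channel genes (0.09) and ependymal genes (-0.46) stayed nearer to their values without it. With both the block and this covariate, a fit added after the data were seen, 136 genes were called, and 93 of the 624 block calls (14.9%) were among them. Of the 624, 95.5% had an interaction closer to 0 with the covariate. Their median absolute interaction was 0.41 with the block alone, and 0.20 with the covariate and no block.

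**Figure D4:**
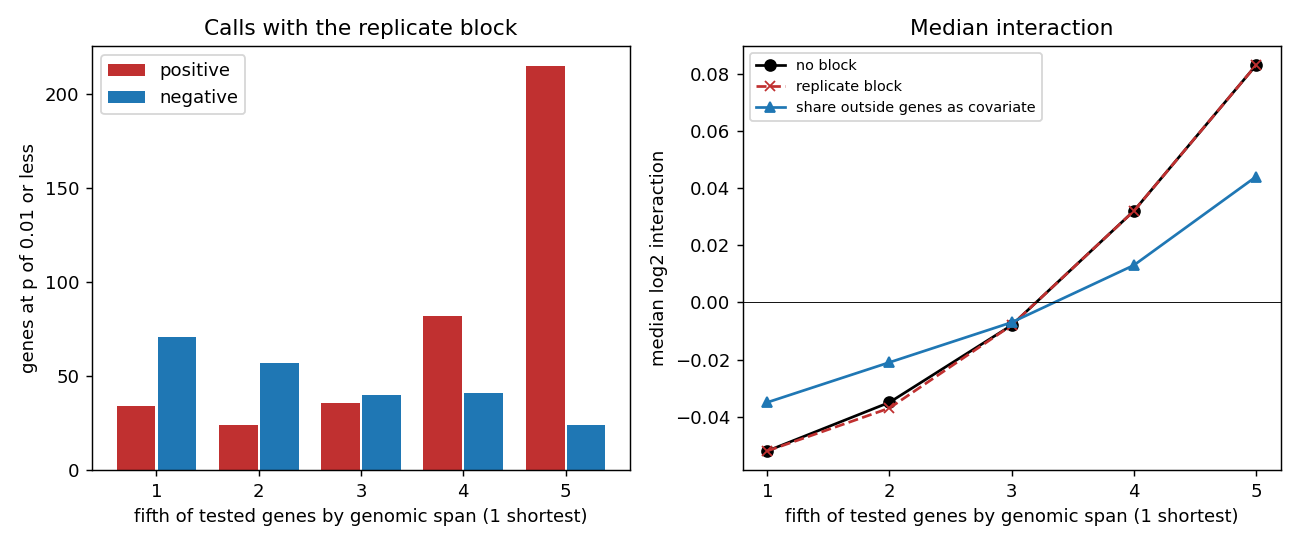
Genes called with the replicate block in each of 5 equal classes of tested genes by genomic span (left, bars from 0) and the median log2 interaction of each class in 3 fits (right). Positive calls are most frequent in the longest class, with 215, and the rise of the median with span is smaller with the share of reads outside genes as a covariate.

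One pair of genes with large and opposite interactions followed individual mice, not groups. Atp6v0c encodes the ring subunit of the vacuolar proton pump that acidifies lysosomes and synaptic vesicles, and Atp6v0c-ps2 is its processed pseudogene. Atp6v0c lies at chr17:24163866-24169702 and the pseudogene at chr6:37806086-37806550 (GRCm38). The first 120 bases of each, from the start codon of Atp6v0c, are shown because they contain the sole base by which the aligned coding sequence and pseudogene differ, in capitals.
Atp6v0c: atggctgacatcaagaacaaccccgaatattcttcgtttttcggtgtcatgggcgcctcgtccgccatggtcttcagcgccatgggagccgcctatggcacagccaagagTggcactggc
Atp6v0c-ps2: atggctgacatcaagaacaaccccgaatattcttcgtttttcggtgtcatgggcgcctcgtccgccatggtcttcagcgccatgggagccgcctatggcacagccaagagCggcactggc
The coding sequence of Atp6v0c, 468 bases, was aligned with the pseudogene from Gencode M21 transcripts. Over 465 aligned bases 464 were identical, or 99.78%, without a gap, and the longest identical run was 354 bases. The untranslated ends of Atp6v0c were not compared. A read from inside such a run matches both places, and the counter lists reads that map to more than one place apart from the genes.

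Atp6v0c was measured at 16.2, 16.8, 51.8 and 13.7 CPM in WT-D, 16.2, 15.2, 15.1 and 16.4 CPM in WT-S, 14.9, 15.4, 14.8 and 17.4 CPM in 3xTg-D and 42.6, 60.3, 61.7 and 14.9 CPM in 3xTg-S mice. The 4 high values, 42.6 to 61.7 CPM, belonged to WT-D mouse 3 and 3xTg-S mice 1, 2 and 3, and the other 12 mice lay between 13.7 and 17.4 CPM. Atp6v0c-ps2 was measured at 32.6, 32.6, 16.1 and 30.6 CPM in WT-D, 31.5, 38.2, 31.2 and 33.1 CPM in WT-S, 30.9, 37.5, 33.5 and 33.5 CPM in 3xTg-D and 11.6, 18.2, 17.9 and 27.3 CPM in 3xTg-S mice. Its 4 lowest values, 11.6 to 18.2 CPM, came from the same 4 mice, and the other 12 lay between 27.3 and 38.2 CPM. The sum of both was 54.1 to 79.5 CPM in those 4 mice and 42.2 to 53.4 CPM in the rest, so the total was also higher. The interactions were 2.16 ± 0.57 (SE, n = 16) with p = 0.00148 for Atp6v0c and -1.11 ± 0.30 (SE, n = 16) with p = 0.00201 for the pseudogene (edgeR). Both passed in all 16 fits that left out a mouse. As 1 vehicle-treated WT mouse had values within the range of 3 of the 4 3xTg-S mice, and the fourth did not, the groups do not separate for either gene. Whether the mice differ in sequence at these genes was not tested.

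Other called genes lay near Atp6v0c. Between 23 and 31 Mb of chromosome 17, a window chosen after these values were seen, 5 of 183 tested genes were called (2.73%, against 0.595% of all genes). The 5 include Atp6v0c itself. As the window was chosen with the calls known, its share is not a test of a local excess. Rnps1, an RNA-binding protein of the exon junction complex, at chr17:24414565-24425901, had 32.4, 31.4, 41.9 and 32.5 CPM in WT-D, 30.8, 29.7, 27 and 33.4 CPM in WT-S, 30.6, 27.6, 30.4 and 34 CPM in 3xTg-D and 43.2, 38.2, 43.9 and 31.5 CPM in 3xTg-S mice. The same 4 mice were its 4 highest, and the interaction was 0.55 ± 0.16 (SE, n = 16) with p = 0.00324 (edgeR), or p = 0.0104 without 3xTg-S mouse 3. Glo1, which detoxifies methylglyoxal, at chr17:30584936-30626871, had 131, 147, 112 and 133 CPM in WT-D, 145, 166, 158 and 130 CPM in WT-S, 141, 171, 149 and 136 CPM in 3xTg-D and 105, 125, 98 and 118 CPM in 3xTg-S mice. WT-D mouse 3 and 3xTg-S mice 1 and 3 were its 3 lowest, but 3xTg-S mouse 4 was lower than mouse 2. The interaction of Glo1 was -0.62 ± 0.14 (SE, n = 16) with p = 0.000553 (edgeR), the smallest of any named protein-coding gene, and it overlaps other genes on both strands. Ip6k3 (-1.15 ± 0.33, SE, n = 16) and the noncoding RNA Gm33727 (-2.57 ± 0.67, SE, n = 16) were the remaining calls of the window. Ip6k3 was at 0.716 CPM or less in all 4 3xTg-S mice, overlapping with WT-D mouse 3 and WT-S mouse 4. Gm33727 was at 0.262 CPM or less in all 4, overlapping with WT-D mouse 2.

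**Figure D5:**
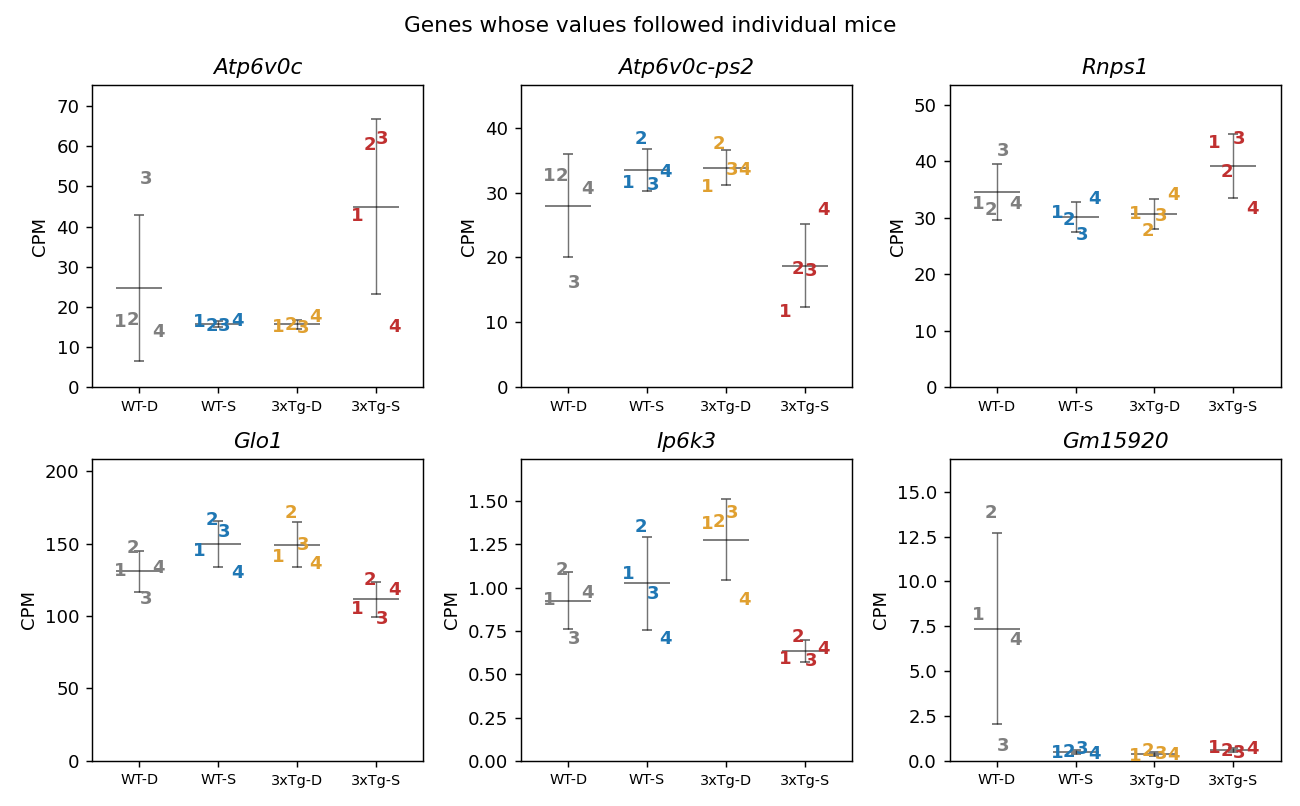
CPM of 6 genes in each mouse, with digits for replicate numbers and bars for the mean ± SD of 4 mice. Atp6v0c is high and Atp6v0c-ps2 low in WT-D mouse 3 and 3xTg-S mice 1 to 3, and Gm15920 is high in WT-D mice 1, 2 and 4 only.

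The smallest p of all belonged to Gm15920, a processed pseudogene on chromosome 5. It was measured at 8.15, 13.8, 0.801 and 6.74 CPM in WT-D, 0.423, 0.518, 0.642 and 0.38 CPM in WT-S, 0.275, 0.545, 0.371 and 0.327 CPM in 3xTg-D and 0.719, 0.572, 0.45 and 0.648 CPM in 3xTg-S mice. It was high in 3 WT-D mice and under 1 CPM in each of the other 13. The interaction was 4.50 ± 0.92 (SE, n = 16) with p = 0.000149 (edgeR), built from changes of -3.89 in WT and 0.62 in 3xTg mice. Without WT-D mouse 3 its adjusted p was 0.000167 in edgeR's test, and DESeq2 gave 0.000846 with all mice.

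The MHC class I and interferon lists had large medians and no call in either fit. All 14 MHC class I presentation genes were positive with a median of 0.82, and 94.4% of 18 interferon response genes were positive with a median of 0.71. The medians were 0.35 and 0.17 with the block. The mean log2 CPM of the MHC class I list reached 4.80 in WT-D, 2.20 in WT-S, 3.55 in 3xTg-D and 2.88 in 3xTg-S mice, from lowest values of 1.69 to 1.92. Its highest values were in WT-D mouse 1 and 3xTg-D mouse 2, and the median became -0.39 without the former and 1.83 without the latter. The interferon median became -0.27 and 1.47 in the same fits, and 3xTg-S mouse 1 was also high, at 3.83. The choroid plexus list, a sign of adjoining tissue, had a median of 0.42 that ran from -1.04 without WT-D mouse 4 to 1.33 without WT-S mouse 1. Fibroblast and meningeal genes (13 tested) had a median of 0.34, which ran from -0.05 without 3xTg-S mouse 1 to 0.76 without WT-S mouse 4. Hemoglobin genes (5 tested) had 0.67, from 0.33 without 3xTg-S mouse 1 to 0.94 without 3xTg-S mouse 4, and mitochondrially encoded genes (8 tested) -0.11, from -0.20 without 3xTg-S mouse 2 to -0.05 without WT-D mouse 4. None of these lists had a call in either fit. Of 48 lists, 8 had a called member without the block and 27 had one with it. Over the 1067 distinct list genes tested, 9 were called without the block (0.843%, near the 0.595% of all genes) and 82 with it (7.69%, against 3.79%).

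The genes of the 3xTg model itself had no called interaction. App was measured at 1600, 1660, 1580 and 1630 CPM in WT-D, 1640, 1700, 1500 and 1650 CPM in WT-S, 2290, 2090, 2400 and 2450 CPM in 3xTg-D and 2230, 2630, 2340 and 2310 CPM in 3xTg-S mice, higher in every 3xTg mouse than in any WT mouse, with an interaction of 0.04 ± 0.09 (SE, n = 16). Thy1, whose element drives the transgenes, was 1570 to 2140 CPM in 3xTg and 517 to 625 CPM in WT mice, with -0.09 ± 0.12 (SE, n = 16). The interaction of Mapt was 0.18 ± 0.09 (SE, n = 16). The median over 10 Alzheimer model genes was 0.04.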

How the data were processed

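RNA from the hippocampus of 16 mice was sequenced. Trimming by the authors used Trimmomatic 0.35 and alignment to GRCm38 used STAR 2.5.1b with Gencode M23 annotation, and they deposited raw read counts per gene, not normalized, for 55335 genes. Whether counting used strand, or identifiers to collapse duplicates, is not given in the sources used here, so overlapping genes are uncertain. Lines for unmapped, multi-mapped, unassigned and ambiguous reads held 24.0% to 27.8% of all reads and were left out of library sizes.

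Tests were run in R 4.3.3. Genes were filtered with edgeR 4.0.16 (filterByExpr, minimum count 10, minimum total 15), libraries were scaled by TMM and 4 groups were fitted with the two-sided quasi-likelihood test, giving 12 residual degrees of freedom, or 9 with the replicate block. Standard errors were derived from the F statistic. CPM are edgeR's, and log2 CPM uses a prior count of 2. The study analysed groups pairwise by DESeq2. Here the interaction needed all 16 mice in one fit, and DESeq2 1.42.0 and limma-voom (limma 3.58.1) were alternatives. The methods were tested on simulated counts. Libraries of a group differed beyond counting noise, with a chi-square of at least 3.8 per degree of freedom. Nothing states that replicates came from separate litters, so p-values measure the spread between these mice.

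Named genes were the 10 per direction with the smallest p, at a mean of at least 1 CPM and with an established symbol of a coding or long noncoding gene, then 6 per direction by block p called in both fits, up to 3 called members per list, the Scd genes and the model's genes. Gm15920, Atp6v0c-ps2, Ip6k3, Gm33727, Prox1 and Cyp4f17 were chosen after their values were seen. A few genes that these rules name are not reported here. The gene lists and members were chosen with earlier results of these data known. Gene span came from Gencode M21 (99.9% of tested genes matched). Lists are described by counts and medians, with no set test. Further alternatives were median-ratio or upper-quartile scaling, other filters, the share of reads outside genes or a choroid plexus score as covariate, and each mouse left out.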

Additional observations from a re-analysis of the deposited data

Results flagged for a closer look

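In 392 groups of 4 mice examined for the named genes and 2 library measures, 13 had 1 mouse whose gap to the nearest other mouse, as a share of the group's range on the log2 CPM scale, exceeded Dixon's 95% critical value, and about 20 would by chance. In WT-D, mouse 3 was highest for Atp6v0c (gap 0.846 of the range), Fmn1 (0.935) and Rnps1 (0.879) and lowest for Atp6v0c-ps2 (0.912). In WT-S, mouse 4 was highest for Ntrk3 (0.849) and Cacna1g (0.857) and lowest for Rnd2 (0.914) and Rpl18 (0.83). In 3xTg-D, mouse 1 was lowest for Steap3 (0.879), mouse 2 was highest for Sox11 (0.857) and lowest for Cacna1e (0.929), and mouse 4 was lowest for Ip6k3 (0.902). In 3xTg-S, mouse 4 was lowest for Srrd (0.946).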

How the results depend on the processing

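Without the block, scaling, DESeq2, limma-voom, the choroid plexus score and a filter of 10 counts in every mouse kept the count of interaction genes at p of 0.01 between 88 and 114, with 0 genes at the adjusted threshold except 1 by DESeq2 (Gm15920). With no filter 208 were called (94 positive, 114 negative) among 33942 genes. With the share of reads outside genes as covariate 76 were called, of which 30 were positive, and 43 of the 98 remained. The replicate block gave 624 (391 positive, 233 negative). With the block, 274, 611, 220 and 637 were called when the mice numbered 1, 2, 3 or 4 were left out, alternatives chosen after seeing the data. Leaving out each mouse gave 56 to 487 in all, 23 to 248 positive and 31 to 239 negative, and 0 to 1 at the adjusted threshold (Gm15920, without WT-D mouse 3). The count fell to 58 without 3xTg-D mouse 2 and to 56 without 3xTg-S mouse 4, and rose to 220 without 3xTg-D mouse 4, 380 without WT-S mouse 4 and 487 without 3xTg-S mouse 2. The cause was not tested.

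The interaction of the share of reads outside genes ran from 1.46 to 3.9 percentage points with each mouse left out, passing the threshold only without 3xTg-S mouse 2, and an exact permutation test flipping the signs of same-numbered pairs, the replicate block for this value, gave p = 0.0625 for the same 2.53 points. Of the 43 named genes called, the block lost 1 call, Cyp4f17, and the share covariate 14, and no sign changed. No label ties the numbers to a litter or day, and 16 of 24 same-numbered pairs had a correlation of deviations over 0.1 (from -0.101 to 0.496), and 11 of 16 mice correlated best with their own number. Depth limits the precision of genes near 1 CPM.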
